A study of Mus musculus with 16 samples.

Results

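The genes described here are 26 genes of cholesterol synthesis and its control by the transcription factor SREBP2. They were taken as a fixed list of pathway genes, from the supply of acetyl-CoA through the mevalonate, squalene and lanosterol steps to cholesterol, with the regulators Srebf2, Scap and Insig1 and the sterol carrier gene Stard4. All 26 were found as single genes among the 49166 genes matched in the files, and all 26 were among the 16971 genes that passed the filter on low counts. Their RNA was measured in 16 libraries from neural progenitor cells of mouse cortex at E18.5, in 4 groups of 4 biological replicates. The wild-type group (WT DMSO) carried a control lentivirus with Cas9 and no Chd1 guide, and was given the solvent DMSO. The 3 knockout (KO) groups carried Cas9 with a guide RNA against Chd1, a chromatin remodeller gene, as transduced and expanded populations. All 4 groups, WT DMSO included, were selected with puromycin for 48 h. KO DMSO received solvent, KO DHT received 10 nM of the androgen dihydrotestosterone for 24 h, and KO DHT+ENZ received 10 µM enzalutamide, an androgen receptor antagonist, 30 min before the same dose of DHT. The cultures were prepared from embryos of 2 litters, with no label tying a replicate to a litter. With no WT culture given DHT and no culture given enzalutamide alone, neither a difference between genotypes in the response to DHT nor an effect of enzalutamide apart from DHT could be tested.

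Cholesterol is built from acetyl-CoA through mevalonate, isoprenoid units, squalene and lanosterol, and the developing brain makes its own because lipoproteins do not cross the blood-brain barrier. Most genes of the route are switched on together by SREBP2, the product of Srebf2, a membrane-bound factor of the endoplasmic reticulum that the escort protein Scap carries to the Golgi for cleavage when sterol is scarce. When sterol is plentiful, Insig1 holds Scap and SREBP2 back, and Insig1 is itself an SREBP2 target.

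In RefSeq promoter windows of build GRCm38.p6, running from 250 bases before to 50 after each start, 22 of the 26 members had an entry, with 26 windows between them, since a gene can have more than 1 start. The sterol regulatory element was searched in 1 spelling only, TCACNCCA. It was found on either strand in 3 of the 26 windows (those of Hmgcs1, Msmo1 and Srebf2) and in 4.36% of all 32851 windows. A CCAAT box (CCAAT), the letters bound by NF-Y, a partner of SREBP, was found in 19 of the 26 and in 37.4% of all windows. The GC box GGGCGG, the letters bound by Sp1, was found in 21 of the 26 and in 35.7% of all windows, and the E-box CACGTG in 6 of the 26 and in 7.15%. A match is a description of letters and does not show that a factor is bound. Printed here are the promoter of the most abundant member (Hmgcs1, chr13:119690101-119690400, plus strand), of the gene for SREBP2 itself (Srebf2, chr15:82147019-82147318, plus strand) and of the member with the smallest p-value in the enzalutamide comparisons (Lbr, chr1:181842352-181842651, minus strand). They run 5′ to 3′ along the gene, with capitals marking TCACNCCA and CCAAT, the latter written ATTGG where it lies on the other strand.
Hmgcs1: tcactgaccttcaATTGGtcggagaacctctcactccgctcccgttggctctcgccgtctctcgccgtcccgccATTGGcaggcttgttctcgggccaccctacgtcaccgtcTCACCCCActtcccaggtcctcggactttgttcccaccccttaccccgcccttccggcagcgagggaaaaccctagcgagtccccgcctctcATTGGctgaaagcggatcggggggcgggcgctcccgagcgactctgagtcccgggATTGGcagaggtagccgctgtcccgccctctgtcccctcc
Srebf2: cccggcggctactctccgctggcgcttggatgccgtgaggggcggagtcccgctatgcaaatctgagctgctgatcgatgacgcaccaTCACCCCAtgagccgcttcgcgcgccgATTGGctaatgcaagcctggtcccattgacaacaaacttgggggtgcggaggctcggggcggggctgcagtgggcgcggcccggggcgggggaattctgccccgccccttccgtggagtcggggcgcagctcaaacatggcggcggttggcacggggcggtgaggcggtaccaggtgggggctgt
Lbr: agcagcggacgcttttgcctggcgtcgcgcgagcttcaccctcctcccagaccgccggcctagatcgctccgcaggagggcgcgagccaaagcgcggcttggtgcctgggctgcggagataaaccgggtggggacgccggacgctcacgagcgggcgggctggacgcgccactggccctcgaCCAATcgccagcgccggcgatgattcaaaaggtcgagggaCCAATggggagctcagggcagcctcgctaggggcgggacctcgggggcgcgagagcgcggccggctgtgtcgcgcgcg
Hmgcs1 held 1 sterol regulatory element, 137 bases upstream of the start, and 4 CCAAT boxes. In Srebf2 the 1 element lay 162 bases upstream, with 1 CCAAT box. Lbr held 2 CCAAT boxes and no TCACNCCA in this window.

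Depth, as the sum of estimated counts, lay between 31.8 M and 36.9 M for 15 libraries and reached 20.2 M for WT DMSO replicate 1. Chd1 was at 66.7 ± 5.73 CPM (counts scaled to library size) in WT DMSO, then 67.3 ± 2.68 in KO DMSO, 72.0 ± 3.87 in KO DHT and, with enzalutamide, 68.2 ± 5.73 (SD, n = 4 each), a level that does not check the knockout label, since a small deletion need not lower a gene's RNA. Of 7 neural progenitor markers 6 averaged over 10 CPM. The oligodendrocyte lineage, known for its high sterol synthesis, showed summed levels of its 8 markers of 1781 to 2228 CPM in WT DMSO, then 1881 to 2598 in KO DMSO, 1664 to 2337 in KO DHT and from 1768 to 2523 in KO DHT+ENZ. Among these 8 markers, Sox10, Mbp and Mog stayed below 1 CPM in every library.

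Per unit of transcript length, the pathway was uneven. In TPM, which scales abundance for length, Hmgcs1, which makes HMG-CoA, was highest at 434 ± 61.2 in WT DMSO (SD, n = 4). It was followed by Fdps, the farnesyl diphosphate synthase, at 378 ± 85.3, Sqle, the squalene epoxidase, at 296 ± 32.7, Insig1 at 204 ± 20.3 and Cyp51, the lanosterol demethylase, at 187 ± 17.4. The gaps from Hmgcs1 to Fdps and from Fdps to Sqle were smaller than the larger SD of each pair, and the gap from Sqle to Insig1 was larger. Msmo1, a sterol C4-methyl oxidase, Srebf2 and Acly, the ATP-citrate lyase, were also above 100 TPM, which made 8 members over that level.

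Idi1, which isomerises isopentenyl diphosphate, was lowest at 11.3 ± 2.05 TPM in WT DMSO, below Hsd17b7, the sterol C3-ketoreductase, at 23.4 ± 4.63. Between them and the top lay a dense middle. Of the 25 gaps between neighbours in the order, 6 exceeded the larger SD of the pair and 19 did not. Dhcr7, whose enzyme makes cholesterol from its last precursor, was at 67.5 ± 6.90, and Mvk and Pmvk at 67.3 ± 9.65 and 60.1 ± 8.62. Late-pathway genes such as Lbr (32.0 ± 3.34 TPM), Nsdhl (32.6 ± 6.71) and Ebp (30.3 ± 5.76) could not be placed in order. The sum over the 26 members was 2689 ± 253 TPM in WT DMSO, then 2599 ± 45 in KO DMSO, 2527 ± 181 in KO DHT and, with enzalutamide, 2584 ± 421 (SD, n = 4 each), and these groups overlapped. The plot of levels along the pathway shows Hmgcs1, Fdps and Sqle highest, in that order, and Idi1 lowest in all 4 groups.

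**Figure D1:**
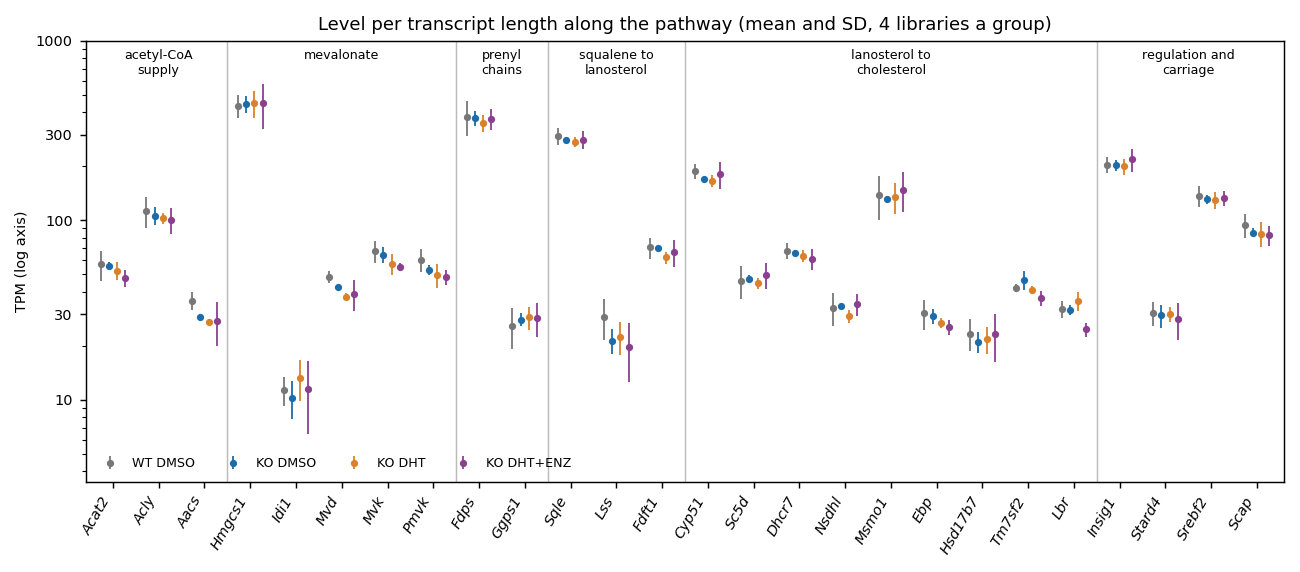
Level of each of the 26 members in TPM on a log axis, as the mean (point) and SD (line) of 4 libraries in each of the 4 groups, with members ordered by their step in the pathway. Hmgcs1, Fdps and Sqle are highest and Idi1 lowest in every group, and the 4 groups lie close together within each gene.

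Levels are uncertain where the quantification had to divide reads between near-identical or overlapping genes. Of the 31-base words in the leading transcript, 85.75% were shared with other genes in Fdps, 50.54% in Acat2 (chiefly with Acat3), 47.53% in Fdft1 (with Ctsb and Gm6781) and 31.99% in Idi1. Shares over 10% were found in 8 members and no sharing in 13. A single transcript held over 90% of a member's estimated counts, as the median over libraries, in 19 of 26 members. Lss, the lanosterol synthase gene, was the most divided, with 48.8% to 74.9% of its counts on the leading transcript.

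The members varied together between libraries. Over the 16 libraries the median Pearson correlation of log2 CPM among the 325 pairs of members was 0.43, against 0.05 among all pairs of the 9747 genes averaging 10 CPM or more. The 16 points share depth, group and replicate number, so these values describe the libraries. Mvk and Pmvk, the consecutive mevalonate kinases, were the closest pair at 0.96, and Acly and Ggps1 the most opposed at -0.44. Of the pairs, 47 were below 0. Sqle (0.92) and Fdft1, the squalene synthase (0.92), followed the mean of the other members most closely, while Ggps1, the geranylgeranyl diphosphate synthase (0.06), and Idi1 (0.12) hardly did.

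Part of this common movement went with the replicate number, though not evenly over the 4 groups. The split used here, replicates 1 and 4 against 2 and 3, was not planned. It was drawn with the members' values known, so the counts only describe these libraries. In WT DMSO, 21 of 26 members were lower in both replicates 1 and 4 than in both replicates 2 and 3, against 24.3% of all genes. The count was 17 in KO DMSO (32.4% of all genes), 12 in KO DHT (30.4%) and just 5 in KO DHT+ENZ (35.9%). Mvk, Pmvk and Acat2, the cytosolic acetoacetyl-CoA thiolase, showed it in all 4 groups (3 of 26 members), as did 12.5% of all genes. The reverse order, replicates 1 and 4 both above replicates 2 and 3, held for 0 members of WT DMSO (25.9% of all genes). It held for 2 members of KO DMSO (35.3%) and, under DHT alone, for 2 (31.5%). Where enzalutamide was added, 7 members had the reverse order (34.5%), more than the 5 above. Pmvk was at 38.9, 43.1, 47.7 and 28.4 CPM in WT DMSO replicates 1 to 4, at 29.7, 37.8, 38.99 and 32.0 in KO DMSO, at 29.3, 38.2, 33.5 and 22.7 in KO DHT, and at 29.6, 39.4, 35.9 and 25.7 in KO DHT+ENZ. Within each group its replicates differed by more than the group means did, so comparisons are given below both over all libraries and between libraries of the same number.

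Whether targeting Chd1 changed the pathway was read from KO DMSO against WT DMSO. No member passed the test. With edgeR 0 of 26 members passed (adjusted p under 0.05 over all 16971 genes), where 0.0% of all genes passed, and 0 members stood at an unadjusted p under 0.05 (2.99% of all genes). With the replicate number as a block 0 members passed, with 3 at an unadjusted p under 0.05 (7.83% of all genes), and DESeq2 also called 0. The median log2 fold change of the members was -0.05, with 20 below 0, against -0.002 over all genes, of which 50.4% were below 0. Without WT DMSO replicate 2, or without WT DMSO replicate 3, 12 of the 26 were below 0. The 95% intervals ran from -0.57 (Lss) to 0.43 (Ggps1), so for each of the 26 members they lay inside a change of 1.5-fold in either direction.

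Lss, which closes the sterol rings, was at 85.6, 101, 86.9 and 73.7 CPM in WT DMSO replicates 1 to 4 and at 77.6, 72.2, 65.4 and 75.3 in KO DMSO. Replicate 2 of WT DMSO was the highest, and the groups overlapped through WT DMSO replicate 4 (log2 fold change -0.26, SE 0.15; adjusted p = 1, edgeR). Aacs, which activates acetoacetate for sterol synthesis, was at 65.8, 73.0, 69.4 and 48.8 CPM in WT DMSO and 54.9, 57.9, 52.7 and 53.1 in KO DMSO. It was lower in 3 pairs and higher in replicate 4 (-0.23, SE 0.12; adjusted p = 1, edgeR). Tm7sf2, one of the genes for a sterol C14-reductase, was at 35.4, 32.0, 33.3 and 29.1 CPM in WT DMSO and 37.6, 33.1, 41.2 and 33.5 in KO DMSO. It was the 1 member higher in 4 of 4 pairs, as 6.24% of all genes were, and did not pass (0.16, SE 0.11; adjusted p = 1, edgeR). Lower in 4 of 4 pairs were 0 members (6.57% of all genes), and wholly below the WT DMSO range also 0 (0.465%). The 16 members outside the plot of library values ran from -0.19 (Pmvk, SE 0.18) to 0.12 (Ggps1, SE 0.15). The members' medians in pairs 1 to 4 were 0.03, -0.18, -0.15 and 0.09, and leaving out 1 library at a time gave medians from -0.13 (without WT DMSO replicate 4) to 0.02 (without WT DMSO replicate 3).

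**Figure D2:**
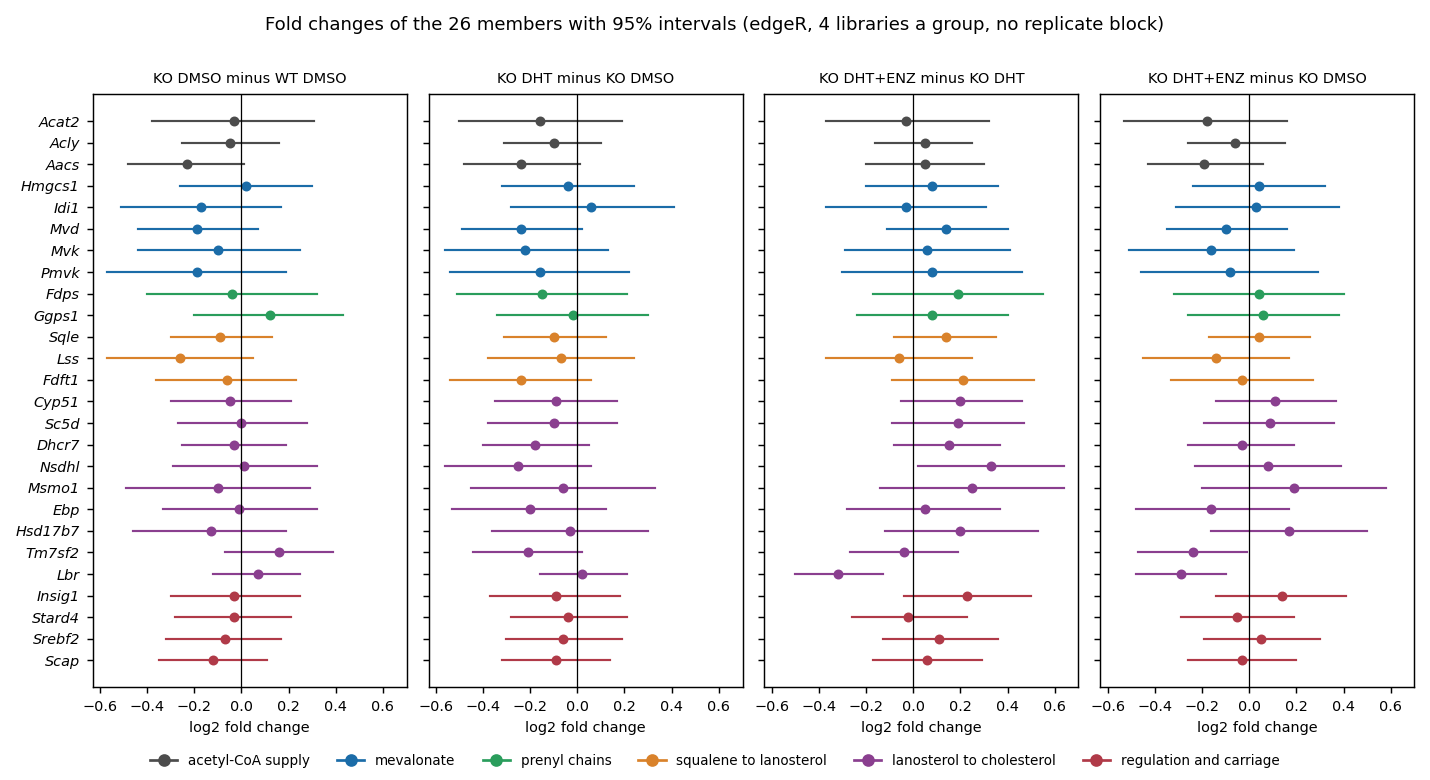
Log2 fold change (point) and 95% interval (line) of each member in the 4 comparisons, from edgeR without the replicate block, with 4 libraries a group. In the second panel 24 of 26 points lie below 0, and in the third panel Lbr lies apart on the lower side at -0.32.

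How the pathway stood after 24 h of androgen in Chd1-targeted cells was read from KO DHT against KO DMSO. No member passed, but most leaned the same way: 24 of 26 had a log2 fold change below 0, where 50.6% of all genes did, and the median was -0.10 against -0.002 over all genes. All 6 steps of the route shared the sign, with medians of -0.16 for acetyl-CoA supply and for the mevalonate genes, -0.09 for prenyl chains, -0.10 for squalene to lanosterol and for lanosterol to cholesterol, and -0.07 for regulation and carriage. The 2 members above 0 were Idi1 (0.06) and Lbr (0.02). Since the members varied together between libraries, neither the 24 members nor the 6 steps are independent results.

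In edgeR 0 of 26 members were called (0.0% of all genes) and 0 stood at an unadjusted p under 0.05 (1.14% of all genes). With the replicate block 0 members were called, where 0.0% of all genes were, with 8 at an unadjusted p under 0.05, each of them lower (Aacs, Dhcr7, Ebp, Fdft1, Mvd, Mvk, Nsdhl and Tm7sf2), where 8.0% of all genes stood at that level and 4.5% were lower at it. That count of 8 became 13 without replicate 1, 6 without replicate 2, 4 without replicate 3 and 0 without replicate 4. DESeq2 without the block called 0 members. With the block it called 0 of 10 members and gave the other 16 no adjusted p. The intervals ran from -0.56 (Mvk) to 0.41 (Idi1), inside a 1.5-fold change for all 26. Lower in 4 of 4 pairs were 8 members, where 13.2% of all genes were: Fdft1, the mevalonate genes Mvd and Mvk, the late-pathway genes Sc5d, Nsdhl and Ebp, and Acat2 and Aacs. Higher in 4 of 4 pairs were 0 members (11.3% of all genes).

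Mvd, the mevalonate diphosphate decarboxylase, was at 42.9, 48.8, 49.0 and 43.4 CPM in KO DMSO replicates 1 to 4 and at 38.3, 40.9, 43.5 and 33.3 in KO DHT. KO DHT replicate 4 was the lowest and replicate 3 reached into the KO DMSO range (-0.24, SE 0.12; adjusted p = 1, edgeR). For Aacs the KO DHT libraries were at 46.6, 51.1, 45.4 and 42.2 CPM, all below the KO DMSO range of 52.7 to 57.9. It was the 1 member whose groups did not overlap on the lower side, as in 0.825% of all genes, and it did not pass (-0.24, SE 0.12; adjusted p = 1, edgeR). Nsdhl, which removes the C4 carboxyl group of sterol intermediates, was at 41.6, 49.2, 48.2 and 45.2 CPM in KO DMSO and at 34.9, 45.8, 40.1 and 34.3 in KO DHT. Replicates 1 and 4 were low in KO DHT, replicate 2 was within the KO DMSO range, and the difference did not pass (-0.25, SE 0.15; adjusted p = 1, edgeR).

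The size of the lean differed between replicates. The members' median was -0.04 in pair 1, -0.08 in pair 2, -0.19 in pair 3 and -0.20 in pair 4, with 9, 10, 1 and 2 of the 26 members higher. Leaving out KO DHT replicate 4 moved the median from -0.10 to -0.05, and leaving out KO DHT replicate 2 moved it to -0.18. After each library was corrected for its trend on transcript length, the blocked median was -0.12. The plot of same-numbered pairs shows the pairs side by side for all 4 comparisons.

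**Figure D3:**
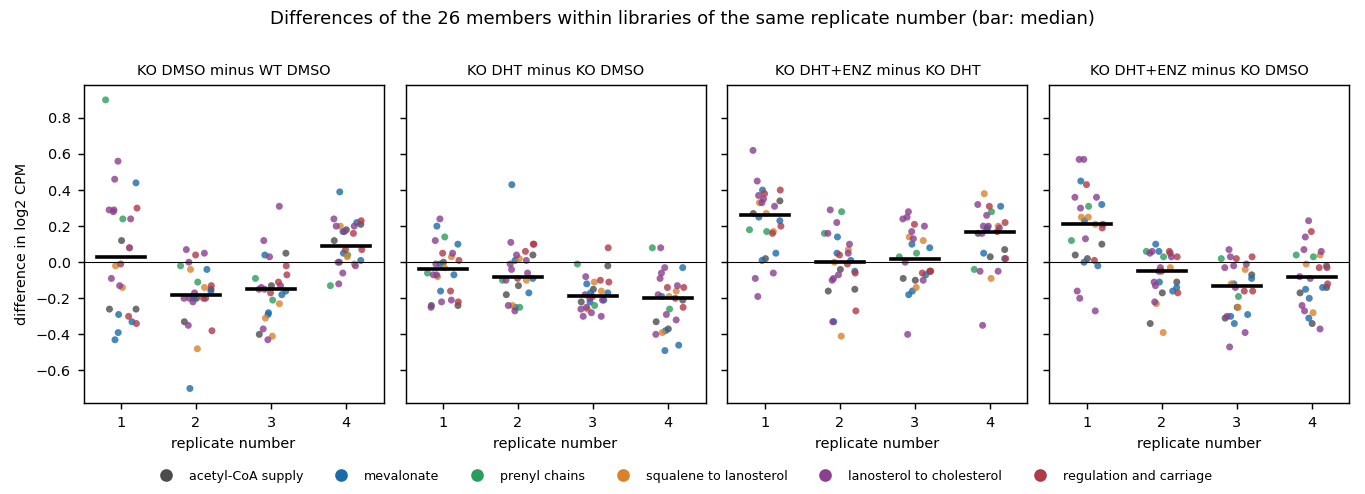
Difference in log2 CPM of each of the 26 members (points, coloured by step of the pathway) between libraries of the same replicate number, with the median as a bar, for the 4 comparisons. For KO DHT minus KO DMSO the medians are -0.04, -0.08, -0.19 and -0.20, and for KO DHT+ENZ minus KO DHT they are 0.26, near 0, 0.02 and 0.17.

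What enzalutamide did on top of androgen was read from KO DHT+ENZ against KO DHT. Lbr was lower in every pair and was the 1 member called by edgeR when the replicate number was a block. Most other members leaned higher without passing: 6 of 26 were below 0, against 50.7% of all genes, and the median was 0.08, against -0.002 over all genes. The KO DHT libraries also served in the preceding comparison, so the lower lean there and the higher lean here are not independent. Leaving out 1 library at a time gave medians from 0.06 (without KO DHT replicate 4) to 0.16 (without KO DHT replicate 2). In edgeR without the block 0 members passed, where 0.265% of all genes did, and 2 stood at an unadjusted p under 0.05 (6.96% of all genes), Nsdhl higher and Lbr lower. With the block 1 of 26 members passed, where 3.48% of all genes did, and 4 stood at an unadjusted p under 0.05, where 15.7% of all genes did. DESeq2 without the block called 1 (1.24% of all genes). These shares of members lie close to those of all genes.

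Lbr encodes the lamin B receptor, a protein of the inner nuclear membrane that tethers chromatin and is also a sterol C14-reductase. It was at 68.0, 75.7, 71.5 and 66.7 CPM in KO DHT replicates 1 to 4 and at 59.6, 60.2, 54.3 and 52.5 in KO DHT+ENZ. The highest KO DHT+ENZ library was below the lowest KO DHT library, as in 2.97% of all genes, and it was the 1 member lower in 4 of 4 pairs (14.2% of all genes). The log2 fold change was -0.32 (SE 0.09; adjusted p = 0.22, edgeR) without the block and -0.31 (SE 0.08; adjusted p = 0.0329, edgeR) with it, and DESeq2 without the block gave an adjusted p of 0.0463. Of all genes 1.92% were lower with the block. With the block the call held without replicate 1 (adjusted p = 0.00632, edgeR), where 7.11% of all genes were called. It was lost without replicate 2, 3 or 4 (adjusted p = 0.272, 0.232 and 0.214, edgeR). Log2 fold changes over these fits ran from -0.35 to -0.29. In the 31-base words of its leading transcript, 11.78% were shared with Dnah14, which overlaps Lbr on the other strand.

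The summed level of 8 mitosis genes was lower in KO DHT+ENZ, as Lbr was. It was 898 to 1038 CPM in KO DHT+ENZ, against 1378 to 1644 in KO DHT, 1245 to 1479 in KO DMSO and 1271 to 1423 in WT DMSO, and its part in the level of Lbr was not tested. WT DMSO replicate 1, the library of lowest depth, was the lowest of its group in both. Its Lbr level was 55.9 CPM, within the KO DHT+ENZ range of 52.5 to 60.2. Its mitosis sum was 1271 CPM, above the KO DHT+ENZ range. In such bulk samples fewer cells of a type and less RNA per cell cannot be told apart. Tm7sf2, which encodes the other sterol C14-reductase, was at 32.4, 33.3, 33.6 and 26.7 CPM in KO DHT and at 31.1, 34.3, 31.4 and 25.9 in KO DHT+ENZ, with a log2 fold change of -0.04 (SE 0.11; adjusted p = 1, edgeR).

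On the higher side Nsdhl and Insig1 came nearest. Nsdhl was at 53.6, 51.1, 47.3 and 42.9 CPM in KO DHT+ENZ, against 34.9, 45.8, 40.1 and 34.3 in KO DHT, higher in 4 of 4 pairs with overlapping groups (0.33, SE 0.15; adjusted p = 0.675, edgeR; 0.105 with the block). Insig1 was at 330.1, 389, 323 and 283 CPM in KO DHT and at 429, 401, 373 and 349.9 in KO DHT+ENZ. Each KO DHT+ENZ library was above its same-numbered partner, the groups overlapped, and the test was not passed (0.23, SE 0.13; adjusted p = 0.839, edgeR; 0.135 with the block). Higher in 4 of 4 pairs were 8 members, where 14.0% of all genes were: Sqle, Fdft1, Fdps, Pmvk, Cyp51, Nsdhl, Msmo1 and Insig1.

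By step, the lanosterol to cholesterol genes had the highest median (0.19, with 7 of 9 members above 0), followed by prenyl chains and squalene to lanosterol (0.14 each), regulation and carriage (0.09), mevalonate (0.08) and acetyl-CoA supply (0.05). The pairs again differed in size. The members' median was 0.26 in pair 1 and 0.17 in pair 4, with 23 and 21 of 26 members higher, and 0.00 in pair 2 and 0.02 in pair 3, with 13 and 14 higher. The intervals ran from -0.50 (Lbr) to 0.64 (Nsdhl), and for 24 members they lay inside a 1.5-fold change. Nsdhl and Msmo1 reached beyond it. With WT DMSO replicate 1, a library of another group, left out and the block kept, 4 members were called by edgeR, where 8.59% of all genes were: Cyp51, Insig1 (adjusted p = 0.0432) and Nsdhl (0.0148) higher and Lbr (0.00184) lower. The 16 members outside the plot of library values ran from -0.03 (Acat2, SE 0.16) to 0.25 (Msmo1, SE 0.18).

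**Figure D4:**
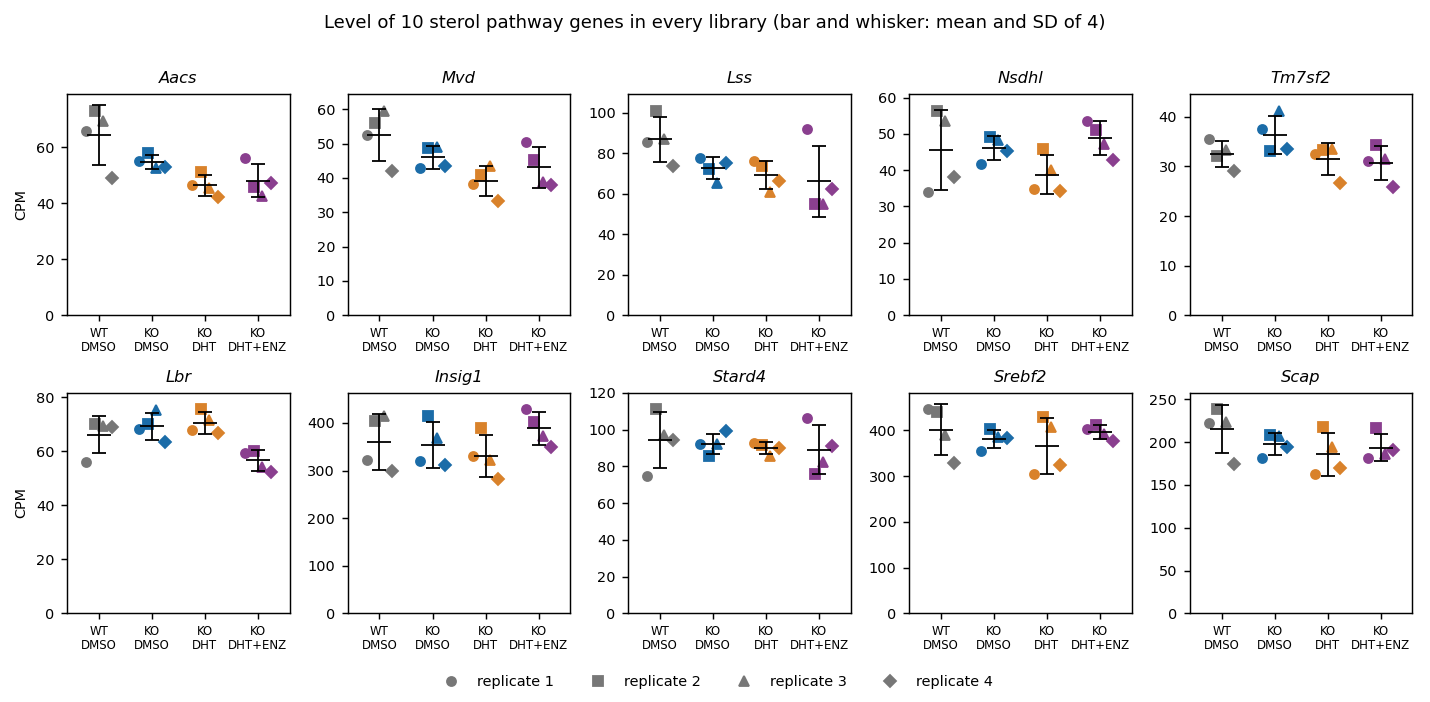
CPM of 10 members in every library, with replicate numbers as marker shapes and the mean and SD of 4 libraries as a bar with whiskers, on axes that start at 0. The 4 KO DHT+ENZ libraries of Lbr lie between 52.5 and 60.2, below all 8 libraries of KO DMSO and KO DHT, while the groups of the other members overlap in the 4 comparisons except for Aacs in KO DHT against KO DMSO.

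Both agents together were set against solvent by comparing KO DHT+ENZ and KO DMSO. The members lay on both sides of 0, with 14 below and 12 above and a median of -0.03 against 0.006 over all genes, of which 48.3% were below 0. With 1 library left out the median ran from -0.08 (without KO DHT+ENZ replicate 1) to 0.01 (without KO DMSO replicate 3 or KO DHT+ENZ replicate 4). KO DHT+ENZ is shared with the preceding comparison and KO DMSO with the one before, so the 3 are not independent. In edgeR 0 members passed, where 0.253% of all genes did and 0.2% were lower, and 2, Lbr and Tm7sf2, stood at an unadjusted p under 0.05 (5.76% of all genes). With the block 0 members passed (2.94% of all genes), with 3 at an unadjusted p under 0.05 (13.5% of all genes), and DESeq2 called 0 (1.06% of all genes). The intervals ran from -0.53 (Acat2) to 0.58 (Msmo1), inside a 1.5-fold change for all 26.

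Lbr was at 68.4, 70.1, 75.4 and 63.3 CPM in KO DMSO, so the KO DHT+ENZ libraries were again lower in 4 of 4 pairs without overlap, as in 3.18% of all genes. It did not pass (-0.29, SE 0.09; adjusted p = 0.346, edgeR; 0.053 with the block). With the block it passed without WT DMSO replicate 1 or without replicate 1 (adjusted p = 0.00319 and 0.0139, edgeR). In those fits 7.24% and 3.71% of all genes were called, and in the blocked fit of all libraries 2.09% were lower. Lbr also passed with the block and the length correction (adjusted p = 0.0442, edgeR), where 3.49% of all genes were called. DESeq2 with the block, chosen after seeing the data, called Lbr and Tm7sf2 (adjusted p = 0.0101 and 0.0405), where 4.83% of all genes were called. Tm7sf2 was at 37.6, 33.1, 41.2 and 33.5 CPM in KO DMSO, above KO DHT+ENZ in 3 pairs, with replicate 2 the exception (-0.24, SE 0.11; adjusted p = 0.809, edgeR; 0.0985 with the block). With the block Tm7sf2 passed without WT DMSO replicate 1 or without replicate 2 (adjusted p = 0.0278 and 0.0454, edgeR), where 7.24% and 1.29% of all genes were called. Mvk was also lower in 4 of 4 pairs (15.6% of all genes were) and Ggps1 higher in 4 of 4 (16%), and neither passed. The members' medians in pairs 1 to 4 were 0.21, -0.05, -0.13 and -0.08, so pair 1 stood on the other side of 0 from the other pairs. Lss was an example, at 92.1, 55.1, 55.1 and 62.1 CPM in KO DHT+ENZ, where replicate 1 alone was above its KO DMSO partner (-0.14, SE 0.15; adjusted p = 1, edgeR). Aacs was likewise at 56.3, 45.8, 42.6 and 47.1 CPM in KO DHT+ENZ, with replicate 1 the highest (-0.19, SE 0.12).

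None of the regulators passed in any comparison, in edgeR with or without the block. Srebf2 was at 447, 440.4, 389.5 and 327 CPM in WT DMSO replicates 1 to 4, at 354, 402, 385 and 383 in KO DMSO, at 305, 429, 407 and 323 in KO DHT, and at 403, 411, 392 and 376 in KO DHT+ENZ. Its lowest and highest libraries were KO DHT replicate 1 and WT DMSO replicate 1, all groups overlapped, and its log2 fold changes were -0.07, -0.06, 0.11 and 0.05 in the order of the comparisons above (SE 0.12 each). Scap was at 222, 239, 224 and 174 CPM in WT DMSO, at 181, 208, 208 and 195 in KO DMSO, at 163, 217, 194 and 169 in KO DHT, and at 182, 216, 186 and 190.4 in KO DHT+ENZ. Its log2 fold changes were -0.12, -0.09, 0.06 and -0.03 (SE 0.11 each), and 15.32% of its 31-base words were shared with a gene on the other strand.

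Stard4, whose product carries sterol between membranes, was at 74.5, 111, 96.8 and 94.4 CPM in WT DMSO, at 91.9, 85.5, 92.2 and 99.0 in KO DMSO, at 92.5, 91.7, 85.6 and 89.8 in KO DHT, and at 106, 75.9, 82.4 and 91.1 in KO DHT+ENZ. WT DMSO replicate 1 was its lowest library, and its log2 fold changes were -0.03, -0.04, -0.02 and -0.05 (SE 0.12 each). Insig1 was at 323, 405, 415 and 298 CPM in WT DMSO and 319.8, 415, 368 and 312 in KO DMSO, with replicates 2 and 3 high in both groups. Its log2 fold changes were -0.03 against WT DMSO and -0.09 with DHT (SE 0.13 each).

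Genes around the route gave a fuller picture of the enzalutamide comparisons. Of 16 genes of fatty acid synthesis and SREBP1-type targets, 16 had a log2 fold change above 0 in KO DHT+ENZ against KO DHT, with a median of 0.18. Without the block 0 passed, and with it 5 were higher (Scd1, Scd2, Elovl1, Mid1ip1 and Slc25a1), where 1.57% of all genes were. Scd2, a stearoyl-CoA desaturase, was at 2063, 3224, 2892.5 and 2288 CPM in KO DHT and at 3107.5, 3608, 3385 and 3104 in KO DHT+ENZ. It was higher in each pair, with overlapping groups, because KO DHT replicate 2 was above 2 of the KO DHT+ENZ libraries (0.35, SE 0.07; adjusted p = 0.0113, edgeR with the block; 0.634 without). With the block its call was lost without replicate 3 or 4 (adjusted p = 0.0601 and 0.152, edgeR). Elovl1, a fatty acid elongase, had a log2 fold change of 0.37 (SE 0.08; adjusted p = 0.0138, edgeR with the block; 0.759 without), lost without replicate 2, 3 or 4 (0.0903, 0.0868 and 0.128). Mid1ip1, an activator of fatty acid synthesis, was at 0.28 (SE 0.07; adjusted p = 0.0401, edgeR with the block), lost without the same replicates (0.105, 0.266 and 0.298). Against KO DMSO, Scd2 and Gpam, which starts glycerolipid synthesis, passed with the block (2 of 16, where 0.854% of all genes were higher). Gpam was at 72.4, 77.2, 81.1 and 75.7 CPM in KO DMSO and at 89.6, 96.6, 92.5 and 98.9 in KO DHT+ENZ (0.30, SE 0.06; adjusted p = 0.0116, edgeR with the block; 0.209 without). Its groups did not overlap, as in 2.92% of all genes on the higher side. In that comparison the blocked calls of both were lost without replicate 2, 3 or 4, with adjusted p of 0.102, 0.0607 and 0.271 for Scd2 and 0.101, 0.0772 and 0.231 for Gpam.

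Of 7 genes of the LXR axis, which answers to oxysterols and exports sterol, 2 were higher in KO DHT+ENZ with the block in both comparisons, and 0 without it. Of all genes, 1.57% were higher with the block against KO DHT and 0.854% against KO DMSO. Abca1, the sterol exporter, was at 70.4, 141, 134 and 105 CPM in KO DHT and at 138, 182, 188 and 182 in KO DHT+ENZ. KO DHT replicate 1 was the lowest, each pair differed in the same direction, and KO DHT replicate 2 was above KO DHT+ENZ replicate 1 (0.65, SE 0.10; adjusted p = 0.00302, edgeR with the block; 0.268 without). With the block the call of Abca1 was lost without replicate 4 (adjusted p = 0.0637, edgeR). Lpcat3, a phospholipid-remodelling LXR target, was at 46.8, 79.96, 68.8 and 50.3 CPM in KO DHT and at 72.0, 94.1, 94.2 and 68.1 in KO DHT+ENZ, again higher in 4 of 4 pairs with overlap (0.43, SE 0.07; adjusted p = 0.00513, edgeR with the block; 0.633 without), and the blocked call was lost without replicate 3 or 4 (0.084 and 0.0927). Against KO DMSO the blocked log2 fold changes were 0.89 for Abca1 and 0.29 for Lpcat3 (SE 0.10 and 0.07; adjusted p = 0.000353 and 0.0447, edgeR), and that of Lpcat3 was lost without replicate 2, 3 or 4 (0.105, 0.229 and 0.254).

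Of 11 genes of sterol esterification, carriage and uptake receptors, 1 was higher with the block. Against KO DHT 1.57% of all genes were, and against KO DMSO 0.854%. The 1 gene was Npc2, which hands sterol out of the lysosome, at 236, 243, 262 and 223 CPM in KO DHT and at 303, 351, 337 and 296 in KO DHT+ENZ (0.42, SE 0.06; adjusted p = 0.00176, edgeR with the block; 0.0971 without). Its groups did not overlap, as in 3.08% of all genes on the higher side. It was also higher than in KO DMSO (0.36, SE 0.06; adjusted p = 0.00256, edgeR with the block), a call lost without replicate 4 (0.0794). Cyp39a1, an oxysterol hydroxylase gene, was the 1 gene of all these lists called without the block, where 0.189% of all genes were lower. It fell from 11.2, 8.87, 10.1 and 12.01 CPM in KO DHT to 7.45, 6.43, 6.41 and 7.54 in KO DHT+ENZ (-0.60, SE 0.12; adjusted p = 0.0444, edgeR; 0.0043 with the block). Its groups did not overlap, as in 2.97% of all genes on the lower side. Leaving out any library of the 2 groups other than KO DHT replicate 2 ended that call without the block, with adjusted p of 0.111 to 0.213 in edgeR. With the block the call was lost without replicate 2, 3 or 4 (0.0538, 0.0774 and 0.0942). Against KO DMSO its log2 fold change was -0.58 (adjusted p = 0.0538, edgeR; 0.00366 with the block, lost without the same replicates). The 3 other hydroxylase genes tested did not pass.

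Of 9 genes that process SREBP or degrade sterol enzymes and 11 of the non-sterol isoprenoid branches, 0 passed in any comparison with or without the block. Insig2, the second retention protein of Scap, had the smallest p-value of the first list and was at 22.7 ± 2.55 CPM in KO DHT and at 27.1 ± 1.54 in KO DHT+ENZ (SD, n = 4 each; 0.26, SE 0.12; adjusted p = 0.714, edgeR). Fntb, a farnesyltransferase subunit, had that of the second, at 27.02 ± 2.68 CPM in KO DMSO and at 23.3 ± 0.978 in KO DHT+ENZ (-0.21, SE 0.09; adjusted p = 0.807, edgeR). In KO DMSO against WT DMSO and in KO DHT against KO DMSO, 0 genes of the 6 lists were called in either fit. Beside the blocked medians of 0.18 for fatty acid genes and 0.19 for the LXR axis in KO DHT+ENZ against KO DHT, the 26 members had 0.08 and all genes -0.005.

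**Figure D5:**
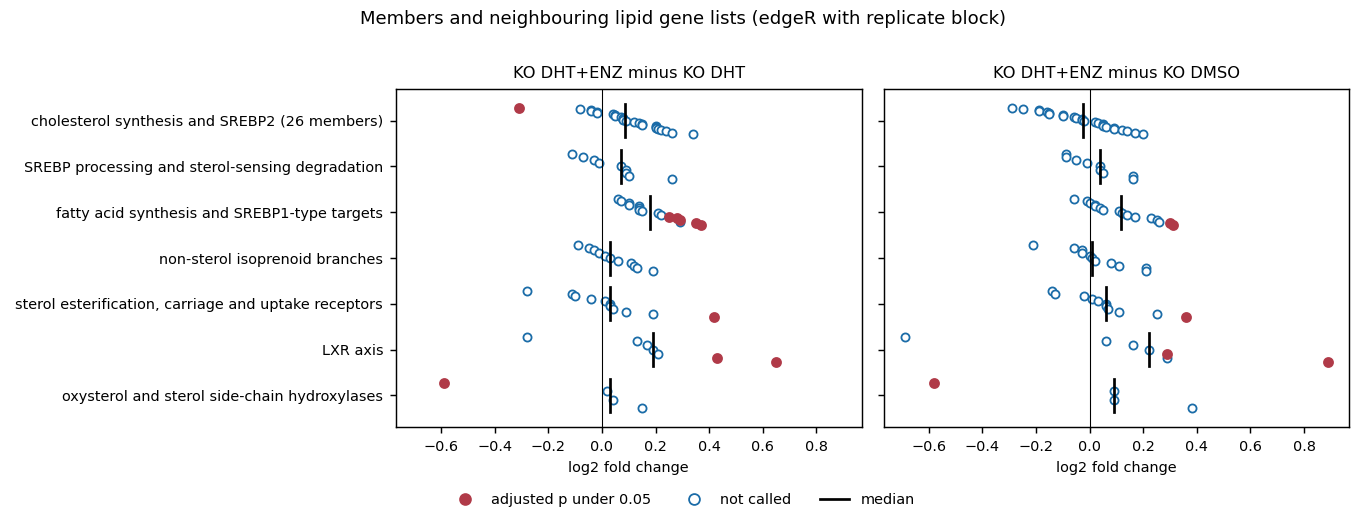
Log2 fold change of the 26 members and of the genes of 6 neighbouring lists in KO DHT+ENZ against KO DHT and against KO DMSO, from edgeR with the replicate block, where filled points passed at an adjusted p under 0.05 and bars are medians. The fatty acid and LXR lists have medians of 0.18 and 0.19 in the left panel, and Lbr is the 1 filled member of the pathway, at -0.31.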

How the data were processed

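RNA from 16 cultures was sequenced as paired 150 bp polyA libraries, per the labels' protocols. Reads were quantified with kallisto against GRCm39, per the submitters' processing notes, and the version is not given in the sources used here. The deposited files hold estimated counts (expected counts), transcript and effective length and TPM per transcript, per the file headers. Counting strand is not given in the sources used here. Of 146190 transcripts, 135007 were matched by identifier to GENCODE M21 gene names, which held 98.85% to 99.12% of counts. Promoter sequences are from RefSeq.

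Per gene, estimated counts were summed, then rounded and fitted with edgeR 4.0.16 (R 4.3.3; TMM, filterByExpr, quasi-likelihood test, all 16 libraries, group only). P-values were adjusted by Benjamini-Hochberg over 16971 genes, and a call is an adjusted p under 0.05. DESeq2 1.42.0 was an alternative. CPM values use the same TMM factors, and log2 CPM a prior count of 2. The deposited TPM served for levels between genes, with no test. SE is that of the log2 fold change. Scripts were tested on simulated data.

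Replicate numbers come from the labels. After removal of group means, same-numbered libraries correlated at 0.16 to 0.79 over 9747 genes in the 4 comparisons, all above 0.1. On that basis the numbers were taken to pair the libraries. Libraries of different numbers were not compared in the same way, so the check cannot show that a number marks a pair. The labels do not say what a number shares. The block lowered the common biological coefficient of variation from 0.212 to 0.122. P-values measure the spread between these cultures. In edgeR on all 16 libraries, the block changed the call of Lbr and of no other member.

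Members described library by library are those called with or without the block, the 4 regulators, and the 2 smallest p-values of each comparison, 10 in all. Pmvk was added after its values were seen. From neighbouring lists, called genes are named, at most 4 a list by smallest p, or else the 1 with the smallest p; Scd1 and Slc25a1 are named beyond that rule. The members and lists were chosen with earlier results of these data known. Results of some genes are not reported here.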

Additional observations from a re-analysis of the deposited data

Results flagged for a closer look

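Within groups of 4 libraries, 6 of 104 combinations of member and group held a library whose distance to its nearest neighbour, as a share of the group's range, was past Dixon's 95% critical value. Chance alone gives about 1 in 20. Hmgcs1 was at 1015 CPM in KO DMSO replicate 1, against 942 to 954 in the other 3 libraries. Fdps was at 180.5 CPM in KO DHT replicate 4, against 237 to 248. Msmo1, the C4-methyl oxidase, was high in replicate 1 of both DHT-treated groups, at 185 CPM in KO DHT (others 144 to 150.5) and 233 CPM in KO DHT+ENZ (others 167 to 176). Tm7sf2 was at 26.7 CPM in KO DHT replicate 4, against 32.4 to 33.6. Lbr was at 55.9 CPM in WT DMSO replicate 1, the library of lowest depth, against 68.9 to 70.2 in the other WT DMSO libraries and within the 52.5 to 60.2 of KO DHT+ENZ.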

How the results depend on the processing

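No alternative called a member in KO DMSO against WT DMSO or in KO DHT against KO DMSO, though DESeq2 with the block gave 16 members no adjusted p in the latter. In KO DHT+ENZ against KO DHT, members called numbered 1 with the replicate block (3.48% of all genes were called), 1 with DESeq2 (1.24%), 1 with the block and a correction for transcript length (3.88%), 2 with DESeq2 and the block (6.08%), and 5 with only the 2 groups and the block (7.23%), the last 2 settings chosen after seeing the data. Leaving out libraries gave 0 to 4 members, the 4 with the block and without WT DMSO replicate 1 (8.59%). In KO DHT+ENZ against KO DMSO, the count was 1 with the block and the length correction (3.49%), 2 with DESeq2 and the block (4.83%), 2 with only the 2 groups and the block (12.1%), and 0 to 2 when libraries were left out, the 2 without WT DMSO replicate 1 (7.24%). In edgeR on all 16 libraries, the block changed the call of Lbr and of no other member. The median for KO DHT against KO DMSO ran from -0.18 to -0.05 when libraries were left out.

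Of the 870 other fits of the 10 members in the plot of library values, 817 kept direction and call, 21 gained a call and 32 changed sign, the latter all uncalled and between -0.10 and 0.10. Among named genes of the neighbouring lists, 26 fits changed sign. With libraries left out one at a time and no block, log2 fold changes in KO DMSO against WT DMSO ran from -0.10 to 0.14 for Nsdhl, -0.11 to 0.05 for Insig1, -0.13 to 0.06 for Stard4, -0.14 to 0.08 for Elovl1, -0.05 to 0.12 for Mid1ip1, -0.03 to 0.08 for Fntb and -0.02 to 0.16 for Lpcat3. In KO DHT against KO DMSO they ran from -0.15 to 0.01 for Srebf2, -0.03 to 0.07 for Lbr, -0.17 to 0.05 for Scd2 and -0.05 to 0.08 for Cyp39a1. In KO DHT+ENZ against KO DHT they ran from -0.27 to 0.01 for Lss, -0.11 to 0.04 for Tm7sf2, -0.11 to 0.05 for Stard4, -0.03 to 0.10 for Aacs and -0.08 to 0.02 for Fntb, and against KO DMSO from -0.15 to 0.02 for Stard4. With the block, values that changed sign in KO DMSO against WT DMSO were -0.07, -0.04 and -0.03 for Nsdhl, 0.04 for Insig1, 0.10 for Stard4, 0.03 for Srebf2, 0.02 for Elovl1 and -0.02 for Fntb. In KO DHT against KO DMSO they were -0.01 and -0.06 for Cyp39a1, and -0.03 for Gpam with the length correction. In KO DHT+ENZ against KO DHT they were 0.03 for Lss, 0.06 and (length correction) 0.02 for Stard4, -0.02 for Aacs, and 0.02 and 0.01 for Fntb, and against KO DMSO -0.01 for Nsdhl and 0.01 for Scap. The cause was not tested. With 4 libraries a group and no block, standard errors of single members ran from 0.09 to 0.18.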

Other observations

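Among the 9747 genes averaging 10 CPM or more, those whose log2 CPM over the 16 libraries was most like the members' mean included Wdr5, a subunit of histone methyltransferase complexes (r = 0.85), Cryab, a small heat shock protein (0.83), and Mccc2, of leucine breakdown (0.82). The libraries share group, depth and replicate number, and nothing about shared control follows from these values.

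The mean standardised level of the 26 members was highest in WT DMSO replicates 2 and 3 (1.28 and 1.09) and lowest in KO DHT replicate 4 (-1.16). WT DMSO replicates 1 and 4 were at -0.40 and -0.63, so the control group alone spanned most of the range over all libraries. KO DHT+ENZ replicate 1, at 0.71, was the highest of the 12 KO libraries.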
